A study of Mus musculus with 19 samples.

Results

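Uck1 and 9 further genes of pyrimidine metabolism were followed across the livers of mice given polyethylene (PE) microplastics, a MASH diet (MD), or both. The 10 genes were chosen by name and by role: the uridine-cytidine kinases Uck1, Uck2 and Uckl1, the uridine phosphorylases Upp1 and Upp2, the uracil and thymine breakdown enzymes Dpyd, Dpys and Upb1, and the synthesis enzymes Cad and Umps. The set was built around Uck1, which was selected on its measured values in these same libraries: of 13597 genes tested, it was the 1 gene (0.00735%) past the test for a PE response that differed between the diets. The number of genes past that test varied with the method: it was 88 with DESeq2, 54 with the division of library numbers as a covariate, 0 with a score of clock genes as a covariate and 0 without the 2 libraries high in muscle or bile duct genes. The levels and fold changes of Uck1 are therefore given as a description with no test, and the counts of genes that passed a test are over the 9 other members. All 10 were among the 55836 genes listed and passed the filter on low counts.

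Cells obtain the pyrimidine nucleotides UTP and CTP by 2 routes. In de novo synthesis the trifunctional enzyme CAD starts the ring and UMP synthase, encoded by Umps, finishes UMP, while in salvage the uridine-cytidine kinases phosphorylate uridine and cytidine taken up by the cell or freed from RNA. The uridine phosphorylases cleave uridine to uracil, and dihydropyrimidine dehydrogenase (Dpyd), dihydropyrimidinase (Dpys) and beta-ureidopropionase (Upb1) then degrade uracil and thymine in turn. The liver is known as a main site both of uridine supply to the circulation and of this breakdown.

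Male wild-type C57BL/6 mice, 8 weeks old at the start, received 1 of 4 regimens for 8 weeks. CD + Veh mice (n = 4) had the control diet (CD, 10 kcal% fat, named chow in the labels) and daily gavage of vehicle, 0.1% Tween 20 without particles. CD + PE mice (n = 5) had the same diet with 2 mg PE particles of 10 to 150 µm per mouse per day. MD + Veh mice (n = 5) had the diet with 2% cholesterol and with fat at 40 kcal% and fructose at 20 kcal%, a model of metabolic dysfunction-associated steatohepatitis, with vehicle, and MD + PE mice (n = 5) had that diet with PE. No transgene or deletion was carried by any group, and each of the 19 libraries came from the poly(A) RNA of 1 liver.

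The genes lie on 8 chromosomes of GRCm39, with positions from GENCODE. Uck1 spans chr2:32145014-32150350 on the minus strand, and its locus overlaps Pomt1, which runs on the opposite strand. Uck2 spans chr1:167050452-167112889 (minus strand) and Uckl1 chr2:181210926-181226685 (minus strand), the latter overlapping Zfp512b on the same strand. Upp1 spans chr11:9067953-9086370 (plus strand), and Upp2 chr2:58457282-58685857 (plus strand), opposite Acvr1. Dpyd is the longest locus, at chr3:118355778-119226573 (plus strand), with Dpys at chr15:39631883-39720866 (minus strand) and Upb1 at chr10:75236949-75279771 (plus strand, opposite Gucd1). Cad spans chr5:31212111-31236418 (plus strand) and Umps chr16:33774077-33787429 (minus strand). Uck2, Dpyd, Dpys and Umps overlap noncoding or unclassified genes too, as do Uckl1 (Uckl1os on the opposite strand), Upb1 (Gm56101 on the same strand) and Upp2 (Gm13558, a noncoding gene, and Gm13559, a pseudogene, both on the same strand). The library type that keeps the strands apart was detected automatically in the counting.

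The 250 bases before a transcript start are shown for Uck1, the gene at the centre of the set, for Uck2 and Umps, the members that passed a test, and for Upp2, the member whose level had the widest range among livers. Capitals mark matches, on either strand, to the 6 promoter motifs whose letters are given after the stretches. The letters are RefSeq's (GRCm38.p6 table), each stretch matched 1 place on its chromosome of GRCm39, and the coordinates are those of GRCm39.
Uck1 (chr2:32150118-32150367, minus strand): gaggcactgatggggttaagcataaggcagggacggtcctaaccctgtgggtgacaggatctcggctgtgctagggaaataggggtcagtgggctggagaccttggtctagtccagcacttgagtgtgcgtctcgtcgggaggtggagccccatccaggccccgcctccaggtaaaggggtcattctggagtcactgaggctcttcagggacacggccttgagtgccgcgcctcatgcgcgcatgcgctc
Uck2 (chr1:167112697-167112946, minus strand): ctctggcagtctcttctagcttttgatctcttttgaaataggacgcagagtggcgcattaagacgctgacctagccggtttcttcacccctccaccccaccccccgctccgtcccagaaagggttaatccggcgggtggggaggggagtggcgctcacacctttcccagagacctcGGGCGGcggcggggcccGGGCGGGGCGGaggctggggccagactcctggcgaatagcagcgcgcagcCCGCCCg
Umps (chr16:33787409-33787658, minus strand): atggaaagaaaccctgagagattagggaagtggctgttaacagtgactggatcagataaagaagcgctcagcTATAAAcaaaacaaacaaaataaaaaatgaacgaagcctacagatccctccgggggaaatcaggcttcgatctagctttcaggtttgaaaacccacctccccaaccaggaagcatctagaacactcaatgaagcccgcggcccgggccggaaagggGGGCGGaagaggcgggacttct
Upp2 (chr2:58644946-58645195, plus strand): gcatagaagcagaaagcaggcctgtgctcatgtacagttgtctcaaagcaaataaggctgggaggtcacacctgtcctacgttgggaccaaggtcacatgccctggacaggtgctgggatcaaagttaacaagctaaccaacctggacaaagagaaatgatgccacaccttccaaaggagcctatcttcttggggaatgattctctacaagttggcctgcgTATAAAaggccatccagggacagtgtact

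Uck2 held 4 GC boxes, the motif GGGCGG, in this stretch, 2 of which share a base. The Uck1 stretch held none of the motifs searched. A GC box was found in 35.7% of all 32851 RefSeq windows of 300 bases (250 before and 50 after the start). Upp2 held a TATA box, spelled TATAAA, 29 bases before the start of the shown transcript, and the Umps stretch held a GC box and, farther out, the letters of a TATA box. A TATA box stood in 13.6% of all windows. Just after the start, the Umps window also held a cAMP response element, the palindrome TGACGTCA, which stands in 1.79% of windows. The Uck2 window held a CCAAT box at its start, a motif of 37.4% of windows. The E-box CACGTG stood in 7.15% of all windows and the D-box TTATGTAA in 0.938%. Neither was found in any of the 14 windows of the 9 members that the table covers, and Dpys had no window there.

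Each library held between 10398820 and 15456729 counts, with fewer in the PE groups (10398820 to 12757617) than in the vehicle groups (13406037 to 15456729). Levels are CPM, counts relative to library size scaled by TMM factors, so that 1 CPM stood for 9.96 to 16.1 counts. The vehicle libraries carried numbers 39 to 47 and the PE libraries 48 to 57, so PE cannot be told apart from library order. Each group was a consecutive run: CD + Veh 39 to 42, MD + Veh 43 to 47, CD + PE 48 to 52 and MD + PE 53 to 57. Within vehicle mice and within PE mice, diet therefore cannot be told apart from library order either. Hepatocyte markers were abundant in every library, with a summed level of 45484 to 90687 CPM for 6 genes. Some libraries stood apart in markers of other tissues: the summed level of 4 skeletal muscle genes was 1870 CPM in MD + Veh replicate 1, against 0.206 to 294 in the others, and that of 4 bile duct genes was 115 CPM in MD + PE replicate 2, against 8.30 to 20.5 in the others. The lipid-associated macrophage markers summed to 170 CPM in MD + PE replicate 4, against 42.6 to 74.9 elsewhere, and its stellate cell markers were the highest at 311 CPM. In CD + PE replicate 2 the Kupffer cell markers summed to 358 CPM, against 64.7 to 240 elsewhere, and the proliferation markers to 22.1 CPM, against 2.61 to 12.9. That library also stood apart from its group in a score of circadian clock genes, at 0.74 against -2.86 to -1.41. In tissue RNA, fewer cells of a type and less RNA per cell cannot be told apart.

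Per kilobase of exon in CD + Veh livers, the breakdown enzymes were the most abundant members. Dpys stood at 46.6 CPM per kb, Upb1 at 43.1 and Dpyd at 40.8, followed by Upp2 at 27.6. Uck1 came next at 7.53 CPM per kb, above Umps at 6.01, Uckl1 at 2.65 and Uck2 at 2.43. Cad stood at 1.32 CPM per kb and Upp1 was lowest at 0.492. Upp2 was thus the more abundant phosphorylase and Uck1 the most abundant of the 3 kinase genes. These per-kilobase levels take the union of annotated exons as the length of each gene.

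Uck1 was low in CD + Veh livers and higher in each of the other 3 groups. Control livers, CD + Veh, had 19.5, 24.4, 22.8 and 22.2 CPM (mean 22.2 ± 2.07, SD, n = 4). The CD + PE livers had 32.7, 35.7, 42.1, 30.5 and 31.8 CPM (34.6 ± 4.62, n = 5). Every CD + PE liver was thus above every CD + Veh liver. Levels in MD + Veh livers were 40.4, 43.7, 45.6, 46.4 and 43.1 CPM (43.8 ± 2.34, n = 5), the highest mean, and the MD + PE livers had 41.9, 36.1, 32.6, 32.5 and 37.9 CPM (36.2 ± 3.94, n = 5).

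In fitted terms, Uck1 was 1.56 times as high with PE on CD (log2 fold change 0.64 ± 0.099, SE; 95% interval 0.43 to 0.85) and 1.97 times as high with MD in vehicle mice (0.98 ± 0.099; 0.77 to 1.19). On MD, PE went the other way, with a log2 fold change of -0.28 ± 0.091 (-0.47 to -0.08) and with overlapping groups, since 1 MD + PE liver at 41.9 CPM lay above the lowest MD + Veh liver at 40.4. Between the 2 PE groups the diet difference was 0.07 ± 0.092 (-0.13 to 0.26). The intervals of Uck1 are descriptions and do not test a change against 0, since the gene was chosen on values of these libraries. The difference between the PE changes on the 2 diets, the value that chose this gene, was -0.91 ± 0.135 (-1.19 to -0.63). The groups therefore ranked from CD + Veh through CD + PE and MD + PE to MD + Veh, where CD + Veh stood apart and the other 3 groups overlapped one another, the highest CD + PE liver (42.1 CPM) lying above the lowest MD + Veh liver (40.4 CPM). Without MD + Veh replicate 1 and MD + PE replicate 2, the libraries high in muscle and bile duct genes, Uck1 gave 0.65 with PE on CD, 1.02 with MD in vehicle mice and -0.95 for the difference between diets. Pomt1, which overlaps Uck1 on the other strand, stood at 14.1 ± 2.14 CPM in CD + Veh, 14.2 ± 1.31 with PE on CD, 16.3 ± 0.753 in MD + Veh and 14.3 ± 2.25 with PE on MD, and its log2 fold change was 0.02 with PE on CD and 0.21 with MD in vehicle mice.

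Uck2, the kinase isoform best known from proliferating cells, fell in the comparisons in which Uck1 was higher. Its level was 13.7, 13.7, 12.8 and 13.3 CPM in the CD + Veh livers, and the CD + PE livers had 6.06, 9.82, 9.18, 8.94 and 8.99 CPM. The groups did not overlap, and Uck2 fell by 0.64 on the log2 scale with PE on CD (SE 0.148, 95% interval -0.95 to -0.33, adjusted p = 0.0199 by edgeR's quasi-likelihood test with Benjamini-Hochberg adjustment). That call did not pass without CD + Veh replicate 1 or without CD + Veh replicate 4, where the adjusted p reached 0.0622, nor with the division of library numbers (adjusted p = 0.172) or the clock score (adjusted p = 0.117) as a covariate, while the estimate was -0.80 and -0.61 there. Over all genes PE on CD called 37 with the division and 255 with the clock score, against 397 without them. The division, between numbers 45 and 46, falls inside MD + Veh alone (3 and 2 libraries). Only that group sets its term, so it cannot check PE on CD against library order.

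The MD + Veh livers had 8.81, 7.93, 7.36, 6.89 and 11.1 CPM of Uck2, again below every CD + Veh liver. With MD in vehicle mice Uck2 fell by 0.67 on the log2 scale (SE 0.146, interval -0.97 to -0.36, edgeR adjusted p = 0.00430). The call held without any 1 of the 19 libraries, with a largest adjusted p of 0.0168, and did not pass with the clock score as a covariate (-0.62, adjusted p = 0.130). With that covariate 401 of all 13597 genes were called with MD in vehicle mice, against 1410 without it. The MD + PE livers had 6.58, 9.94, 8.17, 8.03 and 7.54 CPM, which overlapped both single-exposure groups. PE on MD (-0.06, interval -0.36 to 0.23) and MD in PE mice (-0.09, interval -0.39 to 0.21) did not pass the test, and the PE changes on the 2 diets differed by 0.57 (SE 0.205, edgeR adjusted p = 0.404). PE on CD and MD in vehicle mice share the 4 CD + Veh controls, so the 2 falls are not separate evidence. Both calls held without MD + Veh replicate 1 and MD + PE replicate 2 (-0.63 and -0.67, edgeR adjusted p = 0.0250 and 0.00798).

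Uckl1, a kinase-like family member, ranged from 9.79 to 15.2 CPM over all livers. Its group means were 14.1 ± 1.17 and 13.4 ± 1.67 CPM on CD without and with PE, and 13.3 ± 0.978 and 12.02 ± 1.77 CPM on MD without and with PE. The groups overlapped in every comparison and none passed the test. The interval of its log2 fold change was -0.30 to 0.16 with PE on CD and -0.31 to 0.15 with MD in vehicle mice. Zfp512b, its overlapping neighbour on the same strand, had group means of 23.2 to 26.0 CPM.

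**Figure D1:**
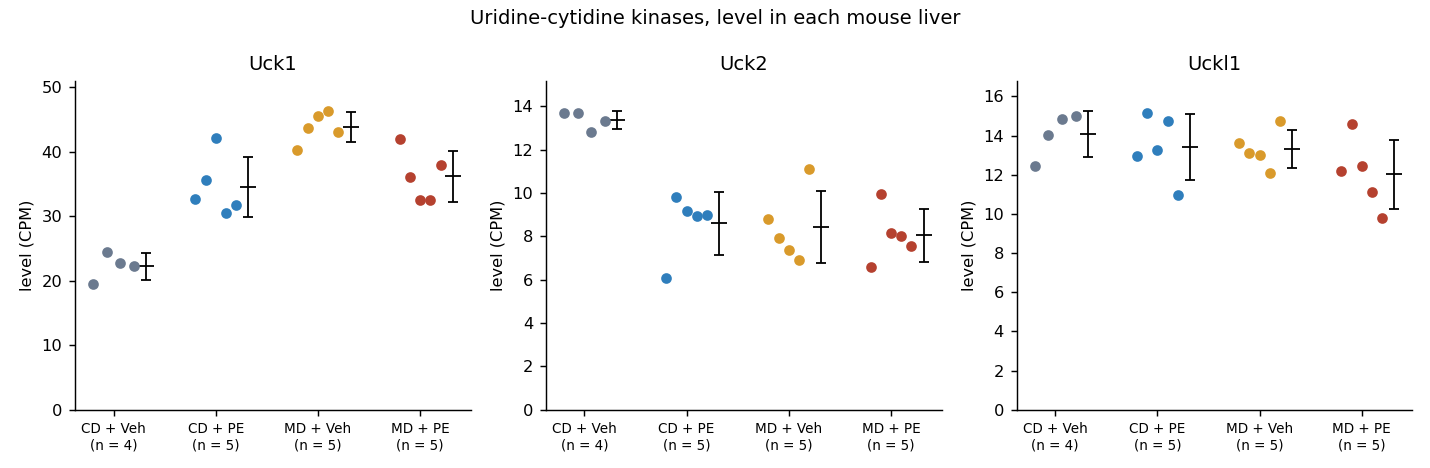
Level of the 3 uridine-cytidine kinase genes (y axis, CPM) in each liver by group (x axis), with points for single mice in order of replicate number and the bar for the group mean ± SD. The CD + Veh livers are lowest for Uck1 (19.5 to 24.4 CPM) and highest for Uck2 (12.8 to 13.7 CPM), and the groups overlap for Uckl1.

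The balance of the kinases within a library does not depend on the scaling between libraries. Uck1 made up 44.7% ± 1.77 (SD, n = 4) of the counts of the 3 kinase genes in CD + Veh livers, 61.0% ± 3.54 with PE on CD, 66.9% ± 3.46 in MD + Veh and 64.3% ± 4.32 in MD + PE livers (n = 5 each). Counts of Uck1 per count of Uck2 were 1.66 ± 0.170 in CD + Veh livers (1.42 to 1.79), against 4.11 ± 0.854 in CD + PE (3.42 to 5.40), 5.38 ± 1.16 in MD + Veh (3.88 to 6.73) and 4.61 ± 1.11 in MD + PE livers (3.64 to 6.37). The CD + Veh livers stood apart from all others in this ratio, and the other 3 groups overlapped. Uck2 per Uckl1, a ratio free of the gene that chose the set, was 0.957 ± 0.107 in CD + Veh livers (0.864 to 1.1), 0.647 ± 0.128 in CD + PE livers, 0.628 ± 0.0775 in MD + Veh livers and 0.674 ± 0.0866 in MD + PE livers. These ratios are descriptions, and those with Uck1 hold the values that chose it.

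Upp2, the uridine phosphorylase typical of liver, had the widest range in fold terms of the 10 members. The CD + Veh livers had 249, 338, 248 and 361 CPM (299 ± 59.2), and the CD + PE livers had 172, 74.1, 186, 281 and 308 CPM (204 ± 93.5). The MD + Veh livers had 152, 122, 129, 217 and 202 CPM (164 ± 43.1), and the MD + PE livers had 82.5, 96.2, 179, 91.0 and 276 CPM (145 ± 83.1). Every MD + Veh liver lay below every CD + Veh liver, but the spread within groups was wide and the log2 fold change of -0.86 (SE 0.362, interval -1.62 to -0.11) did not pass over all genes (edgeR adjusted p = 0.120). Fitted with only the groups compared, it passed (-0.85, adjusted p = 0.0120). PE on CD gave -0.55 (SE 0.361, interval -1.31 to 0.21, edgeR adjusted p = 0.471), and PE on MD -0.18 (interval -0.90 to 0.54).

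The spread of Upp2 followed the clock genes. A score was taken as the mean log2 CPM of Bmal1, Clock, Npas2, Cry1 and Nfil3 minus that of Dbp, Tef, Nr1d1, Nr1d2, Per2, Per3 and Ciart, the output and repressor genes that peak at the opposite time of day. Around the group means, Upp2 (log2 CPM) correlated with this score with Pearson's r = -0.877 over 19 libraries. On ranks of these centred values, centred again within groups, the correlation was -0.827. Two-sided permutation within groups gave p = 1e-05, the smallest that 100000 resamples can give, and p = 9e-05 on ranks. Adjusted over 9 members, these were 9e-05 and 0.00081. The share of all genes that correlated this closely with the score was not counted. The sign was negative in each of the 4 groups. Without CD + PE replicate 2 and MD + Veh replicate 5, the libraries farthest from the median once scores were centred on their group means, r was -0.841. CD + PE replicate 2 had both the highest score, 0.74, and the lowest Upp2 level, 74.1 CPM.

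Within MD + Veh, the 3 libraries numbered up to 45 had 122 to 152 CPM of Upp2 and the 2 numbered from 46 had 202 and 217. The clock score moved with the groups too: it averaged -3.62 ± 0.540 in CD + Veh livers, -1.65 ± 1.45 with PE on CD, -0.91 ± 0.859 in MD + Veh livers and -1.02 ± 0.699 with PE on MD. With the score as a covariate, the Upp2 estimates turned to 0.44 with PE on CD and 0.67 with MD in vehicle mice. The time of day at death was not given in the sources used here, and its part in the result was not tested.

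**Figure D2:**
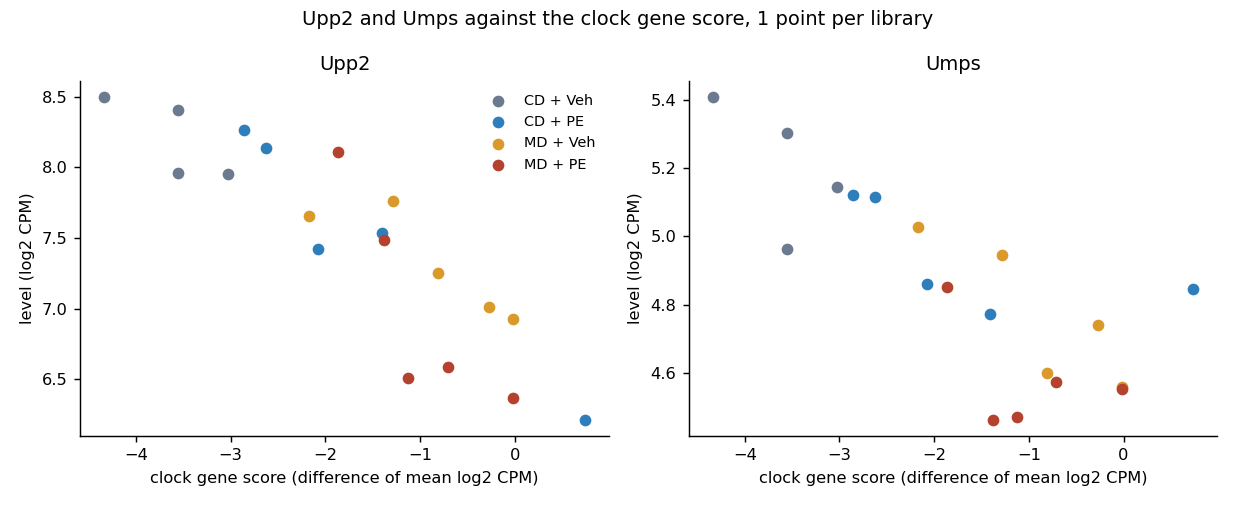
Level of Upp2 and Umps (y axes, log2 CPM) against the clock gene score (x axis, difference of mean log2 CPM), 1 point per library and a colour per group. Upp2 falls along the score within each group (r = -0.877 around the group means), and CD + PE replicate 2 lies at the far right at 0.74.

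Upp1, the other uridine phosphorylase, was scarce, with 9 to 38 counts per library. Its levels ran from 0.904 to 3.12 CPM, the groups overlapped in every comparison, and none passed the test. The intervals were wide at this depth, for instance -0.81 to 0.50 on the log2 scale with PE on CD and -0.33 to 0.92 with MD in PE mice.

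The breakdown enzymes act in sequence, and none of the 3 was called in any comparison. Dpyd, the first and rate-limiting step, was level across the CD groups and lowest in MD + PE livers. In CD + Veh livers it stood at 382, 445, 451 and 466 CPM and in CD + PE livers at 440, 404, 469, 424 and 453 CPM, a log2 fold change of 0.01 (interval -0.19 to 0.20). The MD + Veh livers had 356, 419, 387, 481 and 392 CPM, and the MD + PE livers 351, 361, 376, 285 and 356 CPM. With MD in PE mice the groups did not overlap, and the log2 fold change of -0.34 (SE 0.087, edgeR adjusted p = 0.0211) was past the adjusted p but short of the minimum fold of 0.38 on the log2 scale. PE on MD gave -0.24 (SE 0.087, edgeR adjusted p = 0.184).

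Dpys, the second step, had its lowest mean in CD + Veh livers and its highest in MD + PE livers. Its levels were 162, 190, 176 and 170 CPM (175 ± 11.6) in the CD + Veh livers, with the CD + PE livers at 208, 169, 247, 200 and 215 CPM (208 ± 28.1), the MD + Veh livers at 193, 242, 256, 241 and 198 CPM (226 ± 28.6), and the MD + PE livers at 239, 244, 267, 225 and 282 CPM (252 ± 22.7). Every MD + Veh liver was above every CD + Veh liver. The log2 fold change of 0.37 (SE 0.105, interval 0.15 to 0.59, edgeR adjusted p = 0.0232) fell just short of the minimum fold, and it was called with the division of library numbers as a covariate (0.40, adjusted p = 0.0332) and without MD + Veh replicate 1 and MD + PE replicate 2 (0.44, adjusted p = 0.0125). PE on CD gave 0.25 (interval 0.03 to 0.47, edgeR adjusted p = 0.208), and MD in PE mice 0.28 (adjusted p = 0.0999).

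Upb1, the third step, had group means of 313 ± 29.2 and 299 ± 33.0 CPM on CD without and with PE, and 261 ± 19.98 and 254 ± 28.1 CPM on MD without and with PE. Its groups overlapped in every comparison, and its log2 fold changes with MD, -0.26 in vehicle mice and -0.23 in PE mice, did not pass (edgeR adjusted p = 0.0709 and 0.129). Gucd1, which overlaps it on the other strand, had group means of 141 to 169 CPM.

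Dpyd and Dpys together gave a ratio that was graded across the groups. Counts of Dpys per count of Dpyd were 0.402 ± 0.0297 in CD + Veh livers (0.365 to 0.427), 0.472 ± 0.0387 in CD + PE (0.417 to 0.527), 0.557 ± 0.0656 in MD + Veh (0.502 to 0.661) and 0.731 ± 0.0570 in MD + PE livers (0.678 to 0.792). The MD + PE livers lay above all others and the MD + Veh livers above all CD + Veh livers, while CD + PE overlapped each of CD + Veh and MD + Veh. The ratio was formed after the levels had been seen and is given with no test. Upb1 per Dpyd had group means of 0.647 to 0.738, with overlapping groups.

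**Figure D3:**
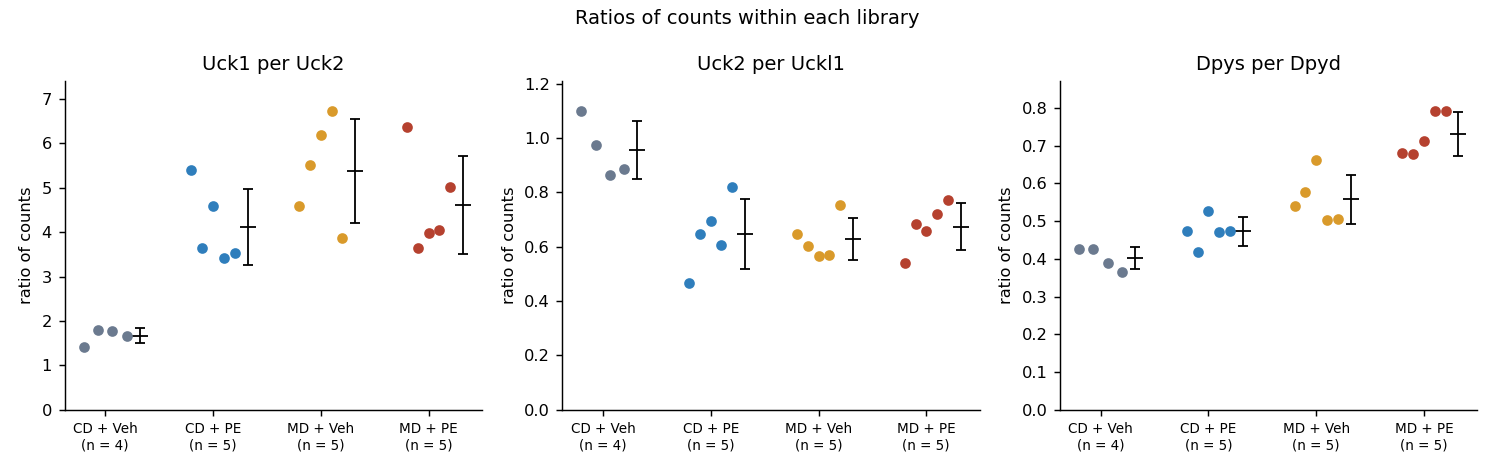
Ratio of counts within each library (y axes) by group (x axes), with points for single mice and the bar for the group mean ± SD. Uck1 per Uck2 is lowest in the CD + Veh livers (1.42 to 1.79), Uck2 per Uckl1 is highest there on average (0.957), and Dpys per Dpyd is highest in the MD + PE livers (0.678 to 0.792).

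Of the synthesis genes, Umps fell with MD. The CD + Veh livers had 39.3, 31.0, 35.2 and 42.3 CPM (37.0 ± 4.91), and the MD + Veh livers 24.1, 23.4, 26.6, 30.6 and 32.4 CPM (27.4 ± 3.98), with 1 MD + Veh liver above the lowest CD + Veh liver. Umps fell by 0.43 on the log2 scale with MD in vehicle mice (SE 0.117, interval -0.68 to -0.19, edgeR adjusted p = 0.0177). The call did not pass in 4 of the 19 fits that left out 1 library, those without CD + Veh replicate 1, CD + Veh replicate 4, MD + Veh replicate 1 or MD + Veh replicate 2 (adjusted p up to 0.0882), nor without MD + Veh replicate 1 and MD + PE replicate 2 together (-0.37, adjusted p = 0.0613).

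The CD + PE livers had 28.9, 28.6, 27.2, 34.5 and 34.7 CPM of Umps (30.8 ± 3.56) and the MD + PE livers 23.3, 23.7, 21.9, 22.0 and 28.7 CPM (23.9 ± 2.79). PE on CD gave -0.27 (SE 0.117, edgeR adjusted p = 0.237), PE on MD -0.20 (adjusted p = 0.422) and MD in PE mice -0.36 (adjusted p = 0.0576). Umps also correlated with the clock score around the group means, with r = -0.62 and, on ranks taken the same way, -0.618. The permutation p was 0.00485 and 0.0108 (adjusted 0.0218 and 0.0487), and r was -0.65 without the same 2 libraries. With the score as a covariate the Umps change with MD in vehicle mice was -0.12 (edgeR adjusted p = 0.725). The other 7 members tested against the score had r of -0.387 to 0.336 around the group means, with the smallest adjusted p at 0.425. How many of all genes follow the score as Umps does was not counted.

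Cad, which carries out the opening steps of the ring, was low and variable. It ran from 6.53 to 16.1 CPM in CD + Veh, 7.97 to 16.1 with PE on CD, 9.79 to 16.9 in MD + Veh and 11.996 to 22.3 CPM in MD + PE livers. The groups overlapped in every comparison and none passed the test, with intervals on the log2 scale of -0.57 to 0.49 with PE on CD and -0.43 to 0.62 with MD in vehicle mice.

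**Figure D4:**
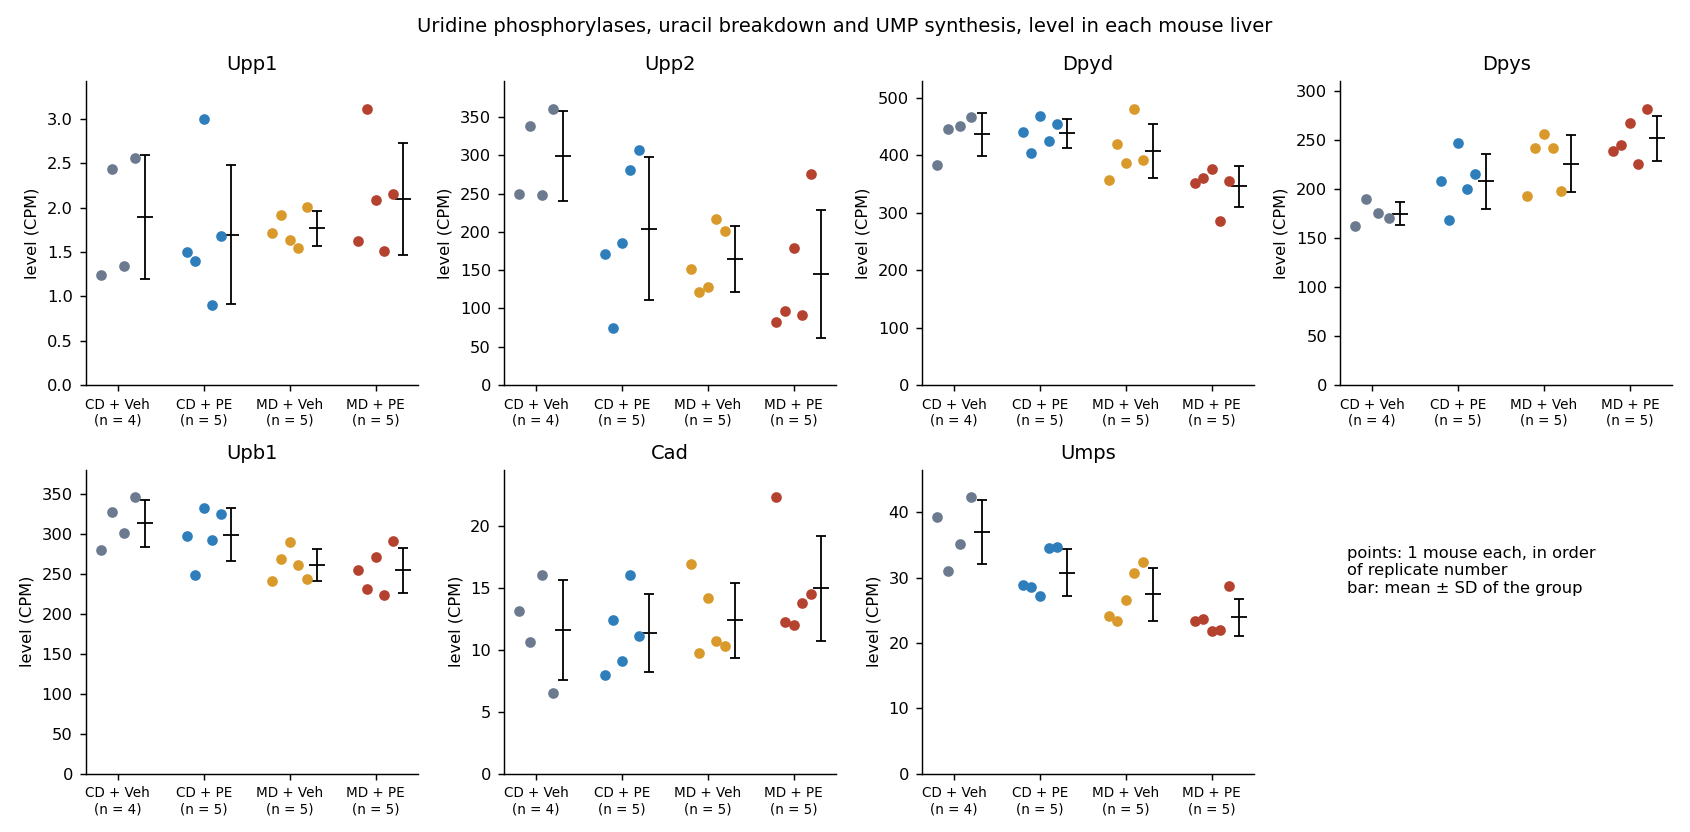
Level (y axes, CPM) of the uridine phosphorylases, the breakdown enzymes and the synthesis enzymes in each liver by group (x axes), with points for single mice in order of replicate number and the bar for the group mean ± SD. Umps is highest in CD + Veh livers on average (37.0 CPM), Dpys is highest in MD + PE livers (252 CPM), and Upp2 runs from 74.1 to 361 CPM.

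Over the 9 members other than Uck1, PE on CD called 1 (Uck2, lower) where 2.92% of all 13597 genes were called, and MD in vehicle mice called 2 (Uck2 and Umps, both lower) where 10.4% were called. PE on MD called 0 of 9 (background 1.08%), with 1 member at an unadjusted p under 0.05, and MD in PE mice called 0 (background 4.61%), with 4 at an unadjusted p under 0.05. The test for a PE change that differed between diets called 0 (background 0.00735%), with 1 under 0.05 unadjusted. By edgeR that 0 was fixed in advance, since the 1 gene called there over all genes was Uck1. DESeq2 likewise called 0 in these 3 comparisons. Of all 13597 genes, 2132, 2954 and 1193 had an unadjusted p under 0.05 by edgeR in these 3 comparisons. The median log2 fold change of the 9 members was -0.07 with PE on CD, -0.10 with MD in vehicle mice, -0.06 with PE on MD and -0.16 with MD in PE mice, beside -0.02 to 0.01 over all genes tested. Of 9 members, 7 had a negative estimate with PE on CD and 7 with MD in vehicle mice, comparisons that share their controls.

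**Figure D5:**
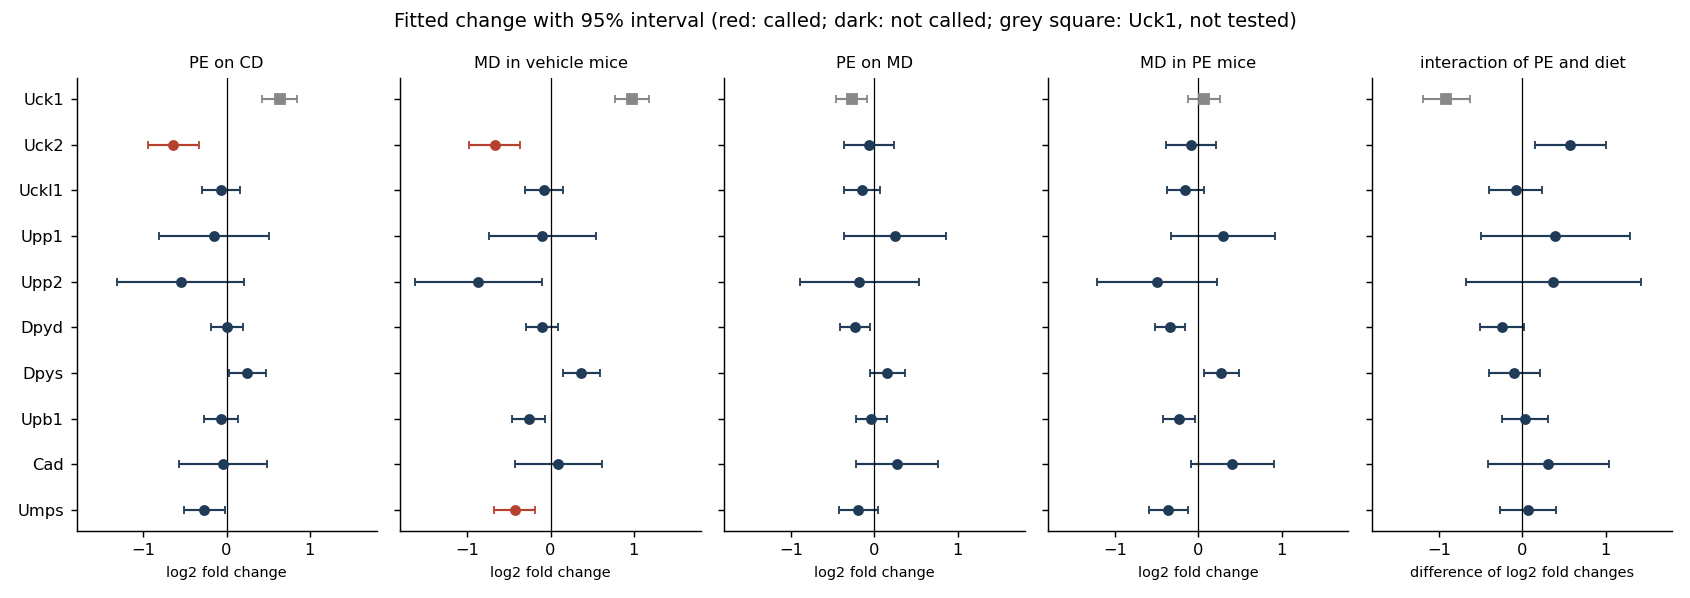
Fitted log2 fold change (x axes) with its 95% interval for the 10 members (y axis) in each comparison, red where called, dark where not, and grey squares for Uck1, which was not tested. Uck2 is red with PE on CD (-0.64) and with MD in vehicle mice (-0.67), Umps with MD in vehicle mice (-0.43), and no member is red in the other 3 panels.

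The rest of the pathway was read from a list of 46 further genes of pyrimidine synthesis, interconversion, breakdown and transport, of which 42 were tested. Ctps was not matched to a listed gene, and Dctd, Slc28a1 and Slc28a3 did not pass the filter. In at least 1 comparison 12 of the 42 were called, and the share of all genes so called was not counted. MD in vehicle mice called 11 of 42 (7 higher, 4 lower, background 10.4%), PE on CD called 2 (background 2.92%), MD in PE mice called 3 (background 4.61%), and PE on MD and the test between diets called 0, by DESeq2 also, with 4 and 5 genes at an unadjusted p under 0.05. Of all 13597 genes, 2132 with PE on MD and 1193 in the test between diets were under that value. The background called was 1.08% with PE on MD. Between diets the 1 gene called by edgeR was Uck1, so the 0 of this list was fixed in advance there. The median log2 fold change of the list was 0.04 with MD in vehicle mice and -0.02 with PE on CD, beside -0.0042 and 0.0064 over all genes.

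The enzymes that take the breakdown products of uracil and thymine onward rose with MD in vehicle mice. All 3 listed were called there (background 10.4%): Abat, the aminotransferase for beta-alanine and GABA, rose by 0.60 on the log2 scale (SE 0.131, edgeR adjusted p = 0.00451), Aldh6a1, the methylmalonate semialdehyde dehydrogenase, by 0.50 (SE 0.096, adjusted p = 0.00161), and Agxt2, a mitochondrial aminotransferase, by 0.45 (SE 0.079, adjusted p = 7.40e-04). Their group means went from 222 ± 33.9 to 336 ± 33.0 CPM for Abat, from 289 ± 21.0 to 408 ± 37.4 for Aldh6a1 and from 109 ± 6.88 to 149 ± 8.41 for Agxt2. Each of the 3 calls held without any 1 of the libraries, and Abat did not pass with the clock score as a covariate. Aldh6a1 also acts on valine and Abat on GABA, so neither is particular to pyrimidines. With PE on CD the 3 had log2 fold changes of 0.36, 0.29 and 0.13 and were not called. With MD in PE mice 0 of the 3 were called: Aldh6a1 and Agxt2, both at 0.33, were past the adjusted p (0.0298 and 0.00959 by edgeR) but short of the minimum fold, and Abat, at 0.26, was not (adjusted p = 0.234).

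Among the nucleotidases and phosphorolysis enzymes, 4 of 12 were called with MD in vehicle mice (background 10.4%). Nt5e, the ectonucleotidase CD73 that frees nucleosides outside the cell, rose by 1.30 on the log2 scale (SE 0.296, edgeR adjusted p = 0.00592), from 2.33 ± 0.756 to 5.71 ± 2.04 CPM. Entpd5, a nucleoside diphosphatase of the endoplasmic reticulum, rose by 0.86 (SE 0.115, adjusted p = 5.92e-05), from 159 ± 26.1 to 289 ± 34.9 CPM, and was also called with MD in PE mice (0.62, adjusted p = 0.00132). Tymp, thymidine phosphorylase, rose by 0.76 (SE 0.164, adjusted p = 0.00376), from 40.3 ± 9.77 to 68.3 ± 9.85 CPM, and Nt5c3, a cytosolic pyrimidine nucleotidase, fell by 0.50 (SE 0.083, adjusted p = 4.63e-04). With PE on CD, Nt5e and Tymp had log2 fold changes of 1.02 and 0.56 and did not pass (edgeR adjusted p = 0.0662 and 0.0627). With the clock score as a covariate, the calls of Nt5e, Tymp and Nt5c3 with MD in vehicle mice did not pass, while both calls of Entpd5 did. Over all genes MD in vehicle mice called 401 with that covariate, against 1410 without it.

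Among the kinases and CTP synthases, Ctps2 fell by 0.74 on the log2 scale with MD in vehicle mice (SE 0.1801, edgeR adjusted p = 0.00929). Ctps1, which carries out the same reaction, rose by 0.72 with MD in PE mice (SE 0.199, adjusted p = 0.0326) from a low level of 2.94 ± 0.788 CPM. Ctps1 averaged 3.63 CPM in CD + Veh and 5.24 in MD + Veh livers, and Ctps2 5.88 in CD + PE and 5.38 in MD + PE livers, neither difference being called. The Ctps1 call was lost in 7 of the 19 fits that left out 1 library (adjusted p up to 0.0986), with no filter on low counts and with only the groups compared. The Ctps2 call was lost without CD + Veh replicate 4 (edgeR adjusted p = 0.0613) and with the division of library numbers or the clock score as a covariate. Cmpk2, a mitochondrial kinase also known as an interferon-induced gene, rose by 1.09 with PE on CD (SE 0.301, adjusted p = 0.0496) and by 0.94 with MD in vehicle mice (SE 0.299, adjusted p = 0.0420). Its CD + PE levels ran from 5.98 to 16.8 CPM, against 3.30 to 4.73 in CD + Veh livers. The PE call held in 3 of 10 alternatives and in 4 of the 19 fits that left out 1 library. The MD call of Cmpk2 was lost in 8 of these fits (adjusted p up to 0.117), with no filter, with the clock score and without the libraries high in muscle and bile duct genes. Rrm2, the small subunit of ribonucleotide reductase, fell by 0.65 with PE on CD (SE 0.171, adjusted p = 0.0389) and by 0.88 with MD in vehicle mice (SE 0.170, adjusted p = 0.00161). Its PE call was lost in 6 of the 19 fits and held in 4 of 10 alternatives. The division and the clock score were among the alternatives that lost it. Its MD call was lost with the clock score. Slc29a1, the nucleoside carrier ENT1, fell with MD by 0.50 in vehicle mice (SE 0.146, adjusted p = 0.0268) and by 0.54 in PE mice (SE 0.139, adjusted p = 0.0235). The first of these calls was lost in 5 of the 19 fits (adjusted p up to 0.0840), with the clock score and without the libraries high in muscle and bile duct genes, and the second in 4 of the 19 (adjusted p up to 0.0697) and with only the groups compared. Dhodh, the mitochondrial enzyme between CAD and UMP synthase, was not called in any comparison, with group means of 7.42 to 8.12 CPM.

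The genes whose levels followed Uck1 most closely over the 19 libraries were picked by Pearson's r of log2 CPM among the 9392 tested genes whose mean reached 5 CPM. The 6 highest were Oat (r = 0.948), Tpgs1 (0.923), Fitm1 (0.904), Stom (0.890), Atox1 (0.886) and Pnkd (0.881), and the 3 lowest were Epb41l5 (-0.913), Tnks1bp1 (-0.892) and Galc (-0.877). Oat, ornithine aminotransferase, had group means of 316 ± 99.4 and 630 ± 121 CPM on CD without and with PE, and 898 ± 70.6 and 716 ± 177 CPM on MD without and with PE, the same order of groups as Uck1. Epb41l5 ran the reverse way, at 43.5 ± 0.935, 33.0 ± 1.25, 26.8 ± 1.66 and 29.5 ± 3.46 CPM. Much of this likeness is that of the group means: ranked by the correlation around the group means, 1 of the 9 stayed among those picked, and r was 0.707 for Oat and 0.816 for Tpgs1. Of the other members, Dpys was the most like Uck1 (r = 0.677) and Uck2 the least (r = -0.727), and around the group means these were 0.436 and -0.141.

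Oat is also a marker of hepatocytes near the central vein, and the summed level of the 5 pericentral markers moved with the groups. It averaged 5838 ± 1102 CPM in CD + Veh livers, 7982 ± 1134 with PE on CD, 8149 ± 516 in MD + Veh livers and 9810 ± 1455 with PE on MD (range over all libraries 4813 to 11721). The sum was carried by Cyp2e1, with group means of 3816, 5727, 5489 and 7420 CPM in the same order. Glul, a defining gene of that zone, had group means of 1081 to 1269 CPM, and Cyp1a2 of 354 to 400. The 5 markers include Oat, picked above for its likeness to Uck1, so counts over them are not independent of that pick. Of the 5, PE on CD called 1 (background 2.92%) and MD in vehicle mice called 2 (background 10.4%), in each case higher, while PE on MD and MD in PE mice each called 0, with 1 at an unadjusted p under 0.05. Of all 13597 genes, 2132 with PE on MD and 2954 with MD in PE mice were under that value. The 5 periportal markers summed to 3509 ± 887, 3953 ± 1459, 3202 ± 582 and 3163 ± 684 CPM in the 4 groups. Among them Gls2 averaged 329, 245, 223 and 129 CPM and Sds 181, 125, 114 and 80.8 CPM. Hal averaged 315, 323, 272 and 228 CPM, Cyp2f2 996, 969, 1033 and 986 CPM, and Pck1 1687, 2291, 1559 and 1739 CPM. The number called, each lower, was 1 with PE on CD (background 2.92%), 2 with MD in vehicle mice (10.4%), 1 with PE on MD (1.08%) and 1 with MD in PE mice (4.61%). The summed hepatocyte markers were lower on MD, at 58158 ± 5436 and 52115 ± 5497 CPM in MD + Veh and MD + PE livers against 79601 ± 6898 and 77660 ± 9612 in CD + Veh and CD + PE livers, and the 4 proliferation markers summed to 2.61 to 22.1 CPM over all libraries. The 5 Kupffer cell markers summed to 150 to 240 CPM in MD + Veh livers against 78.1 to 134 in CD + Veh livers, with no overlap, and the 4 stellate cell markers to 152 to 233 against 117 to 161 CPM, with overlap. With MD in vehicle mice edgeR called 0 of either list, with 1 of the 5 Kupffer cell and 3 of the 4 stellate cell markers at an unadjusted p under 0.05. Of all 13597 genes, 3890 were under that value with MD in vehicle mice. The part of zonation, cell composition and proliferation in the values of the members was not tested.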

How the data were processed

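The deposited table held expected counts, estimated by the authors per gene and stored as whole numbers. Reads from stranded poly(A) libraries had been trimmed with fastp 0.23.4, quantified with Salmon 1.10.3 on the GENCODE transcriptome of GRCm39 with automatic library type, and summed to genes with tximport. Columns were mapped to mice by their labels, giving 4 CD + Veh, 5 CD + PE, 5 MD + Veh and 5 MD + PE libraries.

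Counts were analysed with edgeR 4.0.16 in R 4.3.3 (filterByExpr, TMM factors, glmQLFit and glmQLFTest, 1 coefficient per group over all 19 libraries, 13597 genes tested). A gene was called at a Benjamini-Hochberg adjusted p under 0.05 and a log2 fold change of 0.38 or more in size, and the difference between diets at the adjusted p alone. Intervals are 95%. Depth was 10398820 to 15456729 counts per library, which limits low genes such as Upp1. Each library is labelled as 1 mouse's liver, though the extraction note speaks of 4 livers picked at random while 3 groups hold 5 libraries. Pairs of libraries held identical values in up to 1.85% of genes with counts, so that none was counted as a copy of another. Alternatives were RLE factors, DESeq2 1.42.0, no filter, a stricter filter (at least 1 group with 10 counts in each of its libraries, and 1 CPM on average), no minimum fold, only the groups compared, a replicate block, the division between library numbers 45 and 46, the clock score, and each library left out. Leaving out MD + Veh replicate 1 and MD + PE replicate 2 together was added after seeing the data. The fits were tested on simulated data.

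The members, gene lists, clock score, covariates and tests were chosen with earlier results of these data known. Text names the members, every called gene of the wider list, the 6 genes most and 3 least like Uck1, and genes that overlap a member. Of the listed genes, 97.9% had a GENCODE name for positions. Ratios were computed in R, and sequences were handled with Python 3.11.15. Protein sequences were not used here.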

Additional observations from a re-analysis of the deposited data

Results flagged for a closer look

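Among 40 groups of member values, 4 held a library whose gap to the nearest other passed Dixon's 95% critical value, where chance gives about 1 in 20. Uck2 was 6.06 CPM in CD + PE replicate 1, with the nearest of its group at 8.94. Dpyd was 284.7 CPM in MD + PE replicate 4 (nearest 351.0), a library whose lipid-associated macrophage markers summed to 170 CPM (48.1 to 51.7 in the rest of its group), its stellate cell markers to 311 (134 to 212) and its hepatocyte markers to 45484 (49905 to 60598), and their part in the value was not tested. Cad was 22.3 CPM in MD + PE replicate 1 (nearest 14.5), and Umps was 28.7 CPM in MD + PE replicate 5 (nearest 23.7). Uck1 appears because the difference between its PE changes on the 2 diets was -0.91 on the log2 scale, the value on which it was selected.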

How the results depend on the processing

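Over the alternatives other than leaving out single libraries, 446 of 476 values of single members kept their direction and their side of the threshold (for Uck1, with no test, moved by less than the spread between replicates). Among the 9 members, the count called with PE on CD went from 1 to 0 with the library division and to 0 with the clock score as a covariate, and with MD in vehicle mice from 2 to 0 with the clock score and to 4 with only the groups compared. With no minimum fold it was 1 with MD in PE mice. Over all genes, PE on CD called 397 in the main fit, 37 with the division and 255 with the clock score. MD in vehicle mice called 1410 in the main fit, 401 with the clock score and 1546 with only the groups compared. MD in PE mice called 627 in the main fit and 964 with no minimum fold. The wider list with PE on CD went from 2 to 1 with RLE, 4 with DESeq2, 0 with no filter, 0 with only the groups compared, 0 with the division, 0 with the clock score and 1 without the libraries high in muscle and bile duct genes. With MD in vehicle mice it was 3 with the clock score, and with MD in PE mice 7 with no minimum fold and 1 with only the groups compared. Over all genes, PE on CD called 394 with RLE, 523 with DESeq2, 300 with no filter and 289 with only the groups compared. It called 377 without the libraries high in muscle and bile duct genes. MD in PE mice called 450 over all genes with only the groups compared. The cause was not tested.

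Leaving out 1 library, the members called ranged from 0 to 1 with PE on CD (0 without CD + Veh replicate 1 or 4), 1 to 3 with MD in vehicle mice (1 without CD + Veh replicate 1, CD + Veh replicate 4 or MD + Veh replicate 2, and 3 without CD + Veh replicate 2, CD + PE replicate 1, CD + PE replicate 4, MD + Veh replicate 5 or MD + PE replicate 4) and 0 to 1 with MD in PE mice (1 without CD + PE replicate 2 or MD + PE replicate 5). The wider list ranged from 0 to 3, 8 to 12 and 1 to 4 in the same comparisons. With PE on CD the wider list fell to 0 without CD + Veh replicate 1, CD + Veh replicate 4, CD + PE replicate 3 or CD + PE replicate 5, and with MD in PE mice to 1 without CD + PE replicate 4, CD + PE replicate 5 or MD + PE replicate 1.

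Signs turned with the clock score for Upp2 (0.44 with PE on CD, 0.67 with MD in vehicle mice, -0.77 between diets), Upb1 (0.043 with PE on CD, -0.091 between diets), Uckl1 (0.028 between diets), Upp1 (0.0098 with MD in vehicle mice), Cad (-0.24 with MD in vehicle mice) and Umps (-0.17 between diets). With the division they turned for Dpyd (-0.16) and Cad (0.33) with PE on CD and for Upb1 (0.011 with PE on CD, 0.0099 with PE on MD, -0.0011 between diets). They also turned for Dpyd with PE on CD under no filter (-0.0052), for Cad with PE on CD under the replicate block (0.028) and for Cad with MD in vehicle mice without the muscle and bile duct libraries (-0.027). None of these values was called. Leaving out 1 library turned Uck2 with PE on MD (-0.15 to 0.057), Upp1 with PE on CD (-0.46 to 0.042) and MD in vehicle mice (-0.25 to 0.094), Dpyd with PE on CD (-0.041 to 0.054), Upb1 with PE on MD (-0.091 to 0.014) and between diets (-0.029 to 0.083), Cad with PE on CD (-0.22 to 0.16) and MD in vehicle mice (-0.090 to 0.29), and Umps between diets (-0.0044 to 0.14). Uck1 with MD in vehicle mice was 0.83 with the clock score.

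The replicate numbers did not pair the samples: over 27 pairs of libraries with the same number the median correlation of residuals was 0.0293, 6 were over 0.1, and 4 of 19 libraries correlated best with their own number. The replicate block left the count of members called at 1 with PE on CD and took it to 3 with MD in vehicle mice, where Upp2 was called (-1.07, edgeR adjusted p = 0.0179). At 9 to 38 counts per library, depth limits Upp1.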
